A study of Mus musculus with 50 samples.

Results

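Levels of 10 genes associated with trophoblast and simple epithelium were described in mouse embryonic stem (ES) cells and in epiblast-like cells (epiLC). The genes were chosen by name, with earlier results of these data known. The 10 comprise 6 transcription factors (Gata2, Gata3, Tfap2a, Tfap2c, Elf3 and Elf5) and 4 keratins (Krt7, Krt8, Krt18 and Krt19). They are 10 of the 55421 genes in each of 3 TPM tables and 10 of the 17043 genes in 1 FPKM table, and all 10 are listed in all 4. TPM and FPKM are RNA-seq abundances that divide reads by transcript length and by the library's total, so levels of different genes can be set side by side within a table. The series concerns developmental genes regulated by β-catenin and the proteins that bind with it.

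The RNA-seq groups came from V6.5, a mouse ES cell line, or from ES cells labelled QKO, which the labels do not spell out. Medium with MEK and GSK3 inhibitors (2i) holds ES cells in the naive ground state, and GSK3 inhibition raises β-catenin. V6.5 cells in 2i carried short hairpins against GFP (shGFP, n = 6, the mock control), β-catenin (shBcat, n = 2), E2F6 (shE2F6, n = 2) or the target labelled HP1r (shHP1r, n = 2), read here as HP1γ, the product of Cbx3, because Cbx3 RNA was lowered. QKO cells in 2i carried shBcat or shGFP (n = 3 each) and are labelled 48 h, with no starting point given. Unmodified V6.5 cells in 2i, epiLC at 24 h and epiLC at 48 h (n = 2 each) share a table. A further table holds epiLC with shBcat at 24, 48 and 96 h and epiLC without a named hairpin at 96 h (n = 2 each). The labels do not say whether replicates were grown separately. A p-value here therefore reflects only how far these libraries scatter, and that scatter may be technical. No hairpin sequence or clone is named in the labels.

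The trophectoderm is the outer epithelium of the blastocyst and gives rise to the placenta, while ES cells descend from the inner cells. Gata2 and Gata3 are zinc-finger factors that act early in trophectoderm, Tfap2a and Tfap2c are AP-2 factors, and Elf3 and Elf5 are ETS factors of epithelia, Elf5 being a marker of trophoblast stem cells. Several of these genes also act elsewhere, Tfap2c in naive pluripotency and in germ cells. Keratin filaments assemble from pairs of a type II and a type I protein. Krt8 (type II) and Krt18 (type I) form the first such pair in the embryo, and Krt7 (type II) and Krt19 (type I) are further keratins of single-layered epithelia.

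In GRCm38.p6, Krt7, Krt8 and Krt18 lie on chromosome 15, at chr15:101412403-101427806, chr15:101996711-102004342 and chr15:102028216-102032026. Krt18 starts 23.9 kb beyond the end of Krt8, and Krt8 lies 568.9 kb beyond Krt7. None of the 22 other protein-coding keratin genes between Krt7 and Krt18 passed the filter in a TPM table (0 of 22), and the highest value among them was 0.71 TPM, for Krt79. Krt19 lies apart on chromosome 11 (chr11:100140810-100145926), and Gata3 lies on chromosome 2 (chr2:9857078-9887953). Promoters of the 3 clustered keratins, which moved together in control epiLC, and of Gata3, which changed in opposite directions in 2 epiLC series, are shown because the results below turn on these genes. Each run is the 250 bases before the RefSeq start, 5′ to 3′ on the gene's strand. Capitals mark matches to an AP-2 motif (GCCNNNGGC), a GATA motif (AGATAA or AGATAG or TGATAA or TGATAG) or an ETS motif (ACCGGAAG or ACAGGAAG).
Krt8, chr15:102004343-102004592, minus strand: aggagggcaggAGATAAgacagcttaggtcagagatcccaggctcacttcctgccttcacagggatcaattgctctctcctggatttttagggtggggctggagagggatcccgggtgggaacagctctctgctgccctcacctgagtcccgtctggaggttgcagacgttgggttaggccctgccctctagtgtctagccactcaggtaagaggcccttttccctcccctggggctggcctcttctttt
Krt18, chr15:102027966-102028215, plus strand: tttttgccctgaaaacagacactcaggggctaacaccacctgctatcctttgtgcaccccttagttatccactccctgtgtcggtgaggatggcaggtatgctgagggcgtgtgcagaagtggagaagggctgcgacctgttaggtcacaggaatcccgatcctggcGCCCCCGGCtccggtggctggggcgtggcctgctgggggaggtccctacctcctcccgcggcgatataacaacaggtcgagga
Krt7, chr15:101412153-101412402, plus strand: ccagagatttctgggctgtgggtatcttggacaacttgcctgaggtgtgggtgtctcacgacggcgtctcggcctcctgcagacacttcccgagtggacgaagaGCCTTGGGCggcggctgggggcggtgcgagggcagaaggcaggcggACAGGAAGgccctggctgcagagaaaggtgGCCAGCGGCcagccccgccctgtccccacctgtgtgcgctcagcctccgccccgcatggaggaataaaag
Gata3, chr2:9878601-9878850, minus strand: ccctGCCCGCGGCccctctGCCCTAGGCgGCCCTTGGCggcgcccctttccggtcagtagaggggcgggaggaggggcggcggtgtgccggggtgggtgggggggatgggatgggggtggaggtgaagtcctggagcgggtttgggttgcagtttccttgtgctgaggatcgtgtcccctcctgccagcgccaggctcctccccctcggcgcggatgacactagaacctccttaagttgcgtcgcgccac

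Motifs were searched on both strands in 300-base RefSeq windows that add 50 bases after the start, with 11 windows for 8 of the 10 genes (none for Krt19 or Tfap2c in the table used). AP-2 matches were found in 4 of the 11 windows, in Gata2, Gata3, Krt7 and Krt18, against 16.6% of 32851 windows genome-wide. The Gata3 window held 3 AP-2 matches, starting 246, 231 and 221 bases before its start, and a GATA match after the start, outside the run shown. GATA matches were found in 3 of the 11 windows (Elf5, Gata3 and Krt8), against 29.8% of all. ETS matches lay in 2 windows (Krt7 and Tfap2a), against 5.8%, and TCF/LEF matches (CTTTGAA or CTTTGAT), the motif read by β-catenin's DNA-binding partners, in 1 window (Elf5), against 8.7%. No window held an E2F match (TTCCCGCC, TTTCCCGC or TTGGCGC), which 5.0% of all windows did. GC content is 58.0% in the Krt8 window and 67.3% in that of Gata3, against a median of 52.7% over all windows. The first and second E2F strings share letters with each other, and no matches overlapped in these windows. A match describes letters, not binding.

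A gene was tested in a table if 2 or more of its libraries reached a value of 1. Elf5 passed in no table, and Krt7 did not pass in the hairpin table or the QKO table, which left 8, 8, 9 and 9 of the 10. Fold changes below are on the log2(value + 1) scale with their standard error (SE), ratios are of group means, and adjusted p-values come from limma with Benjamini-Hochberg adjustment over all genes tested, called under 0.05. The files give no read totals, so depth is unknown. The number of genes at 1 or more ranged from 12446 to 14151 across FPKM libraries and from 13924 to 15351 across TPM libraries. The hairpins lowered their own targets, by log2 changes of -3.93 for Ctnnb1 (β-catenin), -1.45 for E2f6 and -3.02 for Cbx3 (HP1γ) in V6.5, and for Ctnnb1 by -2.98 in QKO cells and -1.62 in epiLC at 96 h. In the hairpin table, shGFP replicates 3 and 4 and both shE2F6 libraries had 19.33% to 22.91% of FPKM in mitochondrial transcripts, against 6.23% to 10.28% in the other 8 libraries. These shGFP replicates also stood apart in several of the 10 genes, as given beside those results.

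In unmodified V6.5 cells in 2i, the transcription factors spanned the widest range. Elf3 stood at 146 and 147 TPM, above 94.3% of the 16559 genes tested. Tfap2c followed at 33.0 and 35.5 TPM, while Tfap2a was at 2.48 and 2.40, Gata2 at 1.92 and 1.94, and Gata3 at 1.07 and 1.23. Elf5 was at 0.09 and 0.08 TPM, and it stayed at or below 0.30 TPM in all 20 TPM libraries and at or below 0.18 FPKM in the hairpin libraries. Among the keratins, Krt18 (15.0 and 16.2 TPM) lay next to Krt8 (14.2 and 15.0 TPM), above Krt19 (4.29 and 5.58 TPM) and Krt7 (1.61 and 1.05 TPM). Krt18 was 1.06 and 1.08 times Krt8 in the 2 libraries, Krt7 overlapped Gata3, and each of the other neighbours in this order was separated in both libraries.

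The label trophoblast was checked against other genes that define that lineage. Prl3d1, a hormone gene of trophoblast giant cells, was listed at 0 in all 20 TPM libraries, and Tpbpa, a marker of the spongiotrophoblast lineage, stayed below 1 TPM in each. In unmodified 2i cells Cdx2, Hand1 and Gcm1 were also below 1 TPM, while Eomes, Tead4 and Ascl2 reached 1 TPM or more. The 8 trophoblast markers summed to 22.6 to 23.9 TPM there. In epiLC at 48 h they summed to 15.8 to 18.2 TPM, with Ascl2, Prl3d1 and Tpbpa below 1 TPM. Cdx2, Hand1 and Gcm1 were called higher at 48 h than in 2i, and Eomes, Tead4 and Ascl2 lower. Being below 1 TPM in 2i, Cdx2, Hand1 and Gcm1 were tested only through epiLC libraries, Cdx2 only through those at 48 h. Ascl2, below 1 TPM at 48 h, was tested only through the earlier groups. The 5 ES cell markers (Pou5f1, Sox2, Nanog, Esrrb and Zfp42) summed to 2116 to 2155 TPM there and to 591 to 623 TPM in epiLC at 48 h, while the 4 epiLC markers (Fgf5, Otx2, Dnmt3b and Pou3f1) went from 27.2 to 29.3 TPM to 445 TPM at 24 h and 224 to 232 TPM at 48 h. The samples carried the ES and epiLC markers of their labels, and the late trophoblast markers were at or near 0.

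From 2i to epiLC at 24 h, the transcription factors fell together. All 5 that were tested were lower, and 7 of the 9 genes tested were called lower and 0 higher, against 39.8% lower and 36.2% higher among all genes. Elf3 dropped from 146 and 147 TPM to 6.79 and 7.01 TPM, 21.2 times lower (log2 change -4.22, SE 0.04, adjusted p = 1.91e-08). Tfap2c went from 33.0 and 35.5 TPM to 2.35 and 2.21 TPM, 15.0 times lower (log2 change -3.43, SE 0.07, adjusted p = 7.95e-08). Both libraries of each group agreed closely, and the groups lay far apart. Tfap2a fell by 0.75, Gata3 by 0.56 and Gata2 by 0.44 on the log2 scale (adjusted p of 0.000156, 0.000557 and 0.00239), Gata3 ending at 0.45 and 0.46 TPM. In bulk RNA, fewer cells with a transcript and less of it per cell cannot be told apart.

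The keratins moved less in these first 24 h. Krt18 held 15.3 and 14.9 TPM against 15.0 and 16.2 TPM in 2i (log2 change -0.05, SE 0.05, adjusted p = 0.456), with overlapping groups. Krt8 fell slightly, from 14.2 and 15.0 to 12.3 and 11.8 TPM (log2 change -0.25, SE 0.05, adjusted p = 0.00176). Krt19, a type I keratin, fell from 4.29 and 5.58 to 1.96 and 1.74 TPM (log2 change -1.05, SE 0.11, adjusted p = 0.000112). Krt7 was at 0.92 and 0.87 TPM, a log2 change of -0.29 (SE 0.14, adjusted p = 0.102). It was called lower without 2i replicate 2 (log2 change -0.46, adjusted p = 0.0255).

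Between 24 and 48 h the keratins rose steeply. Of the 9 genes tested, 7 were higher and 1 lower, against 45.2% higher and 28.9% lower among all genes, and the median of the 9 was 1.62 beside 0.12 for all genes. Krt18 went from 15.3 and 14.9 TPM to 93.8 and 100.1 TPM, 6.42-fold (log2 change 2.60, SE 0.05, adjusted p = 2.01e-07). Krt8 went from 12.3 and 11.8 to 74.5 and 75.7 TPM, 6.23-fold (log2 change 2.54, SE 0.05, adjusted p = 1.4e-07). Krt19 went from 1.96 and 1.74 to 17.4 and 18.2 TPM, 9.61-fold (log2 change 2.72, SE 0.11, adjusted p = 1.74e-06). The fourth keratin, Krt7, reached 3.94 and 3.14 TPM, 3.96-fold (log2 change 1.26, SE 0.14, adjusted p = 0.000177). At 48 h Krt18 stood above 90.2% of tested genes and Krt8 above 87.0%, having stood above 58.4% and 53.9% at 24 h. The 4 keratins summed to 29.3 to 30.6 TPM at 24 h and to 190 to 197 TPM at 48 h.

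The transcription factors divided over the same interval. Gata3 rose from 0.45 and 0.46 to 3.52 and 3.43 TPM, 7.64-fold (log2 change 1.62, SE 0.08, adjusted p = 3.76e-06). Tfap2c rose from 2.35 and 2.21 to 17.8 and 16.3 TPM, 7.47-fold (log2 change 2.46, SE 0.07, adjusted p = 4.11e-07). Its paralog Tfap2a fell further, to 0.37 and 0.30 TPM (log2 change -0.62, SE 0.08, adjusted p = 0.000481). Elf3 stayed near its 24 h level, at 6.81 and 6.86 TPM (log2 change -0.01, SE 0.04, adjusted p = 0.803), and was called lower under median-of-ratios scaling (log2 change -0.16, adjusted p = 0.00969). Gata2 was called higher (log2 change 0.22, adjusted p = 0.0455), a call lost under that scaling (log2 change 0.12, adjusted p = 0.229) and without any 1 of the 4 libraries. This scaling moved the median of all genes by -0.15, and called 5873 genes higher and 6383 lower in place of 7490 and 4789.

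**Figure D1:**
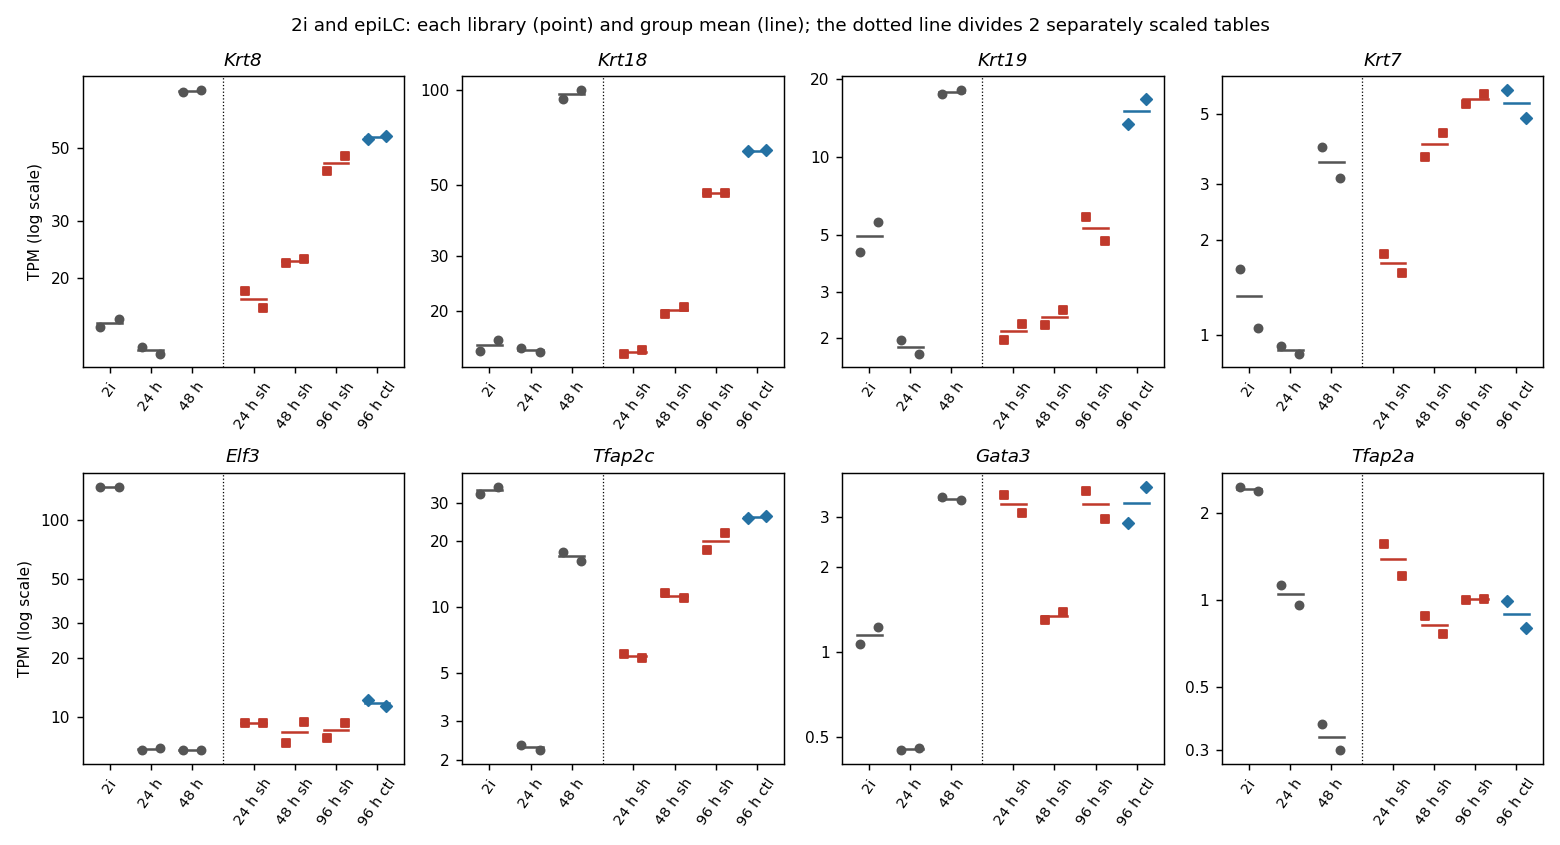
TPM on a log scale for 8 of the 10 genes; each point is a library, each line a group mean. Left of the dotted line are unmodified 2i cells and control epiLC at 24 and 48 h; right of it, in a table scaled separately, shBcat epiLC (sh, squares) at 24, 48 and 96 h and control epiLC (ctl, diamonds) at 96 h. Krt8 and Krt18 climb at 48 h on the left and more gradually on the right, and Elf3 is highest in 2i.

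Set against the starting 2i cells, epiLC at 48 h had more of all 4 keratins and of Gata3, and less of the other 4 transcription factors tested. All 9 genes tested were called, 5 higher and 4 lower, beside 45.1% higher and 30.8% lower among all genes. Krt18 was 6.20 times and Krt8 5.15 times its 2i level, and Krt19 3.60 times. Gata3, at 3.02 times its 2i level, moved with the keratins. Tfap2c had regained a level 2.01 times below that in 2i (log2 change -0.97, SE 0.07, adjusted p = 1.19e-05), whereas Elf3 remained 21.4 times below (log2 change -4.24, SE 0.04, adjusted p = 9.17e-09) and Tfap2a 7.28 times below. The Gata2 call (log2 change -0.22, adjusted p = 0.0478) was lost without any 1 of the 4 libraries.

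Other genes of simple epithelium and trophoblast, from lists of related genes, gave a background for this rise. Of 19 simple epithelium genes tested, 14 were higher and 3 lower at 48 h against 24 h (median log2 change 1.16), led by Jup (plakoglobin, log2 change 1.87), Perp (2.77), Cldn7 (2.13) and Cldn4 (1.55), which encode junction proteins. At 24 h against 2i the same list had 8 higher and 9 lower, beside 36.2% and 39.8% of all genes. Grhl2 (3.17), a factor that activates epithelial genes, and Epcam (1.36), an epithelial surface protein, were higher there while Cldn4 (-1.53) was lower. Of 15 trophoblast identity genes, 9 were higher and 2 lower at 48 h against 24 h (median 0.36). Tinagl1 (1.72), Cdx2 (2.32) and Tead4 (1.11) were among the higher. Over this interval 45.2% of all genes were higher and 28.9% lower. Against 2i, the trophoblast list at 48 h had 7 higher and 7 lower (median 0.15), beside 45.1% and 30.8% of all genes. Tinagl1 and Tead4 were among the lower there, and Cdx2 among the higher. Cdx2 averaged 0.58 TPM at 24 h and 6.96 TPM at 48 h, and it was tested only through the 48 h libraries where it is high. Of 4 keratins outside the set that were tested, Krt20 rose (0.24 to 3.51 TPM) and Krt42 and Krt17 fell.

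Primitive endoderm, another early epithelium that expresses simple keratins, was examined alongside. All 7 of its markers that were tested rose between 24 and 48 h, with a median log2 change of 1.51. They were Gata4, Dab2, Sparc and the basement membrane genes Lamb1, Col4a1, Col4a2 and Lama1. The 12 markers summed to 107 TPM at 24 h and to 233 to 244 TPM at 48 h. The 7 that define the lineage summed to 6.61 to 6.64 TPM at 24 h and to 21.4 to 25.2 TPM at 48 h. Among these, Dab2 rose from a mean of 2.72 to 15.3 TPM and Gata4 from 2.70 to 5.24 TPM, while Gata6, Sox17, Sox7, Foxa2 and Pdgfra, below 1 TPM in both groups and not tested, had higher means at 48 h. Fibroblast markers had 4 of 6 higher (Col1a2, Col3a1, Col1a1 and Loxl1) and 2 lower (Thy1 and Dcn), beside 45.2% and 28.9% of all genes. Their median log2 change was 0.96, and their list summed to 12.6 to 14.3 TPM at 24 h and 18.4 to 19.5 TPM at 48 h. Col1a1, Col1a2 and Col3a1 were below 1 TPM in every 2i and 24 h library. They were tested only through the 48 h group where they are high, and the count and median carry that selection. The collagen gene Col1a2 went from a mean of 0.16 to 4.55 TPM, and Postn and Lum were below 1 TPM at both times. The part of these markers in the keratin change was not tested.

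With β-catenin knocked down, Krt7, Krt8 and Krt18 rose from 24 to 48 h within their own table, and Krt19 was not called. From 24 to 48 h of shBcat epiLC, 4 of 9 genes tested were higher and 2 lower, beside 15.7% higher and 17.8% lower among all genes. Krt18 went from 14.7 and 15.1 TPM to 19.7 and 20.7 TPM, 1.35-fold (log2 change 0.41, SE 0.05, adjusted p = 0.00101). Krt8 went from 18.3 and 16.2 to 22.3 and 22.9 TPM, 1.31-fold (log2 change 0.37, SE 0.08, adjusted p = 0.00808). Krt7 rose 2.38-fold, to 3.66 and 4.37 TPM (adjusted p = 0.00116), and Tfap2c rose 1.88-fold, to 11.6 and 11.0 TPM (adjusted p = 0.000488). Krt19 was at 1.97 and 2.27 and then 2.24 and 2.57 TPM, with overlapping groups (log2 change 0.13, SE 0.13, adjusted p = 0.509). Krt8 lost its call without replicate 2 of either time, with adjusted p of 0.0593 and 0.0531.

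Gata3 took the other direction in these cells. It fell from 3.58 and 3.10 TPM at 24 h to 1.30 and 1.39 TPM at 48 h (log2 change -0.89, SE 0.14, adjusted p = 0.00265). It then rose to 3.71 and 2.95 TPM at 96 h (log2 change 0.88, SE 0.14, adjusted p = 0.00306), overlapping its 24 h level. Tfap2a was called lower from 24 to 48 h (1.57 and 1.21 to 0.88 and 0.76 TPM, log2 change -0.39, adjusted p = 0.0378), a call lost without any 1 of the 4 libraries. Gata2 was 1.68 and 1.50 and then 1.17 and 1.21 TPM (adjusted p = 0.258), and Elf3 was between 7.42 and 9.51 TPM at both times.

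From 48 to 96 h of shBcat epiLC all 4 keratins, Tfap2c and Gata3 rose, 6 of 9 genes tested against 25.2% of all genes, with 0 lower against 9.83%. Krt18 reached 47.2 and 47.4 TPM (2.34-fold, log2 change 1.19, SE 0.05, adjusted p = 1.69e-05), Krt8 42.6 and 47.5 TPM (1.99-fold, adjusted p = 0.000165) and Krt19 5.85 and 4.73 TPM (log2 change 0.88, adjusted p = 0.0024). Krt7 rose to 5.40 and 5.79 TPM (adjusted p = 0.0359), and lost its call under median-of-ratios scaling and without any 1 of the 4 libraries. That scaling called 2558 genes higher and 2368 lower in place of 3856 and 1504.

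At 96 h the knockdown could be compared with control epiLC in 1 table, and 2 keratins were lower. This control carried no named hairpin, so β-catenin knockdown and the presence of a hairpin cannot be told apart here. Krt19 stood at 13.4 and 16.7 TPM in control and at 5.85 and 4.73 TPM with shBcat, 2.85 times lower (log2 change -1.35, SE 0.13, adjusted p = 0.00189). Krt18 stood at 64.0 and 64.7 TPM in control and at 47.2 and 47.4 TPM with shBcat, 1.36 times lower (log2 change -0.44, SE 0.05, adjusted p = 0.00472). These were 2 of the 9 genes tested, with 0 higher, against 2.54% lower and 2.29% higher among all genes, and both calls were kept in each of the 4 fits that leave out 1 library.

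The remaining genes at 96 h did not pass. Krt8 was 53.6 and 54.6 TPM in control and 42.6 and 47.5 TPM with shBcat (log2 change -0.26, SE 0.08, adjusted p = 0.106). Tfap2c was 25.5 and 25.9 against 18.2 and 21.9 TPM (log2 change -0.35, SE 0.09, adjusted p = 0.0722), and was called under median-of-ratios scaling (adjusted p = 0.0469) and without shBcat replicate 2 (adjusted p = 0.0313). Elf3 was 12.2 and 11.4 against 7.84 and 9.39 TPM (log2 change -0.41, SE 0.12, adjusted p = 0.106). In these 3 genes, as in Krt18 and Krt19, the groups did not overlap and the knockdown was lower, 5 of 9 genes beside 24.6% of all genes. Tfap2a (0.99 and 0.80 against 1.00 and 1.01 TPM, log2 change 0.08, not called) did not overlap in the other direction, as 20.4% of all genes did. Gata3 (2.85 and 3.84 against 3.71 and 2.95 TPM), Gata2 and Krt7 had overlapping groups.

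In the same comparison, 11 of 19 simple epithelium genes fell and 0 rose, with a median log2 change of -0.47 beside -0.02 for all genes. Esrp1, a splicing factor of epithelial cells, had a log2 change of -0.86, and the junction genes Cldn6, Cdh1 (E-cadherin) and Cldn7 had -0.83, -0.50 and -0.79. The count was 5 to 7 when any 1 of the 4 libraries was left out. Of 16 trophoblast identity genes, Dlx3 (-0.60) and Cdx2 (-0.54) were lower and 0 higher, both calls lost without either control library. The 12 primitive endoderm markers summed to 155 to 164 TPM in control and 172 to 193 TPM with shBcat, with 1 of 8 tested higher (Sparc) and 1 lower (Foxa2), neither called without either control library. Foxa2 was below 1 TPM in every shBcat epiLC library, so it was tested only through the 96 h control, the group where it is high. Among those that define the lineage, Gata6, Sox17, Sox7 and Pdgfra were below 1 TPM in both groups. The part of these markers in the keratin values was not tested.

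Control and shBcat epiLC at 24 and 48 h lie in separately scaled tables, so their levels are given side by side without a test. At 48 h the means were 96.9 TPM in control and 20.2 TPM with shBcat for Krt18, 75.1 and 22.6 TPM for Krt8, and 17.8 and 2.41 TPM for Krt19. At 24 h they were 15.1 and 14.9 TPM for Krt18, 12.1 and 17.3 TPM for Krt8, and 1.85 and 2.12 TPM for Krt19. For Gata3 the 24 h means were 0.46 TPM in control and 3.34 TPM with shBcat, and the 48 h means 3.48 and 1.35 TPM. For Tfap2c they were 2.28 and 5.99 TPM at 24 h and 17.0 and 11.3 TPM at 48 h. Krt7 had means of 0.895 TPM in control and 1.69 TPM with shBcat at 24 h, and of 3.54 and 4.015 TPM at 48 h. Krt8, Krt18 and Krt19 were further apart between these tables at 48 h than at 24 h, Krt7 was further apart at 24 h, and Gata3 differed in opposite directions at the 2 times.

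In V6.5 cells held in 2i, shBcat went with more Krt8 and Krt18. Of 8 genes tested, 3 were higher and 1 lower, against 3.51% higher and 5.21% lower among all genes. Krt8 was 9.51 and 10.8 FPKM with shBcat and 2.00 to 4.55 FPKM (median 3.44) in the 6 shGFP libraries, 3.09-fold (log2 change 1.42, SE 0.25, adjusted p = 0.00649). Krt18 was 8.41 and 9.09 FPKM with shBcat and 2.37 to 4.92 FPKM (median 3.79) with shGFP, 2.33-fold (log2 change 1.07, SE 0.23, adjusted p = 0.0173). Gata3 was 2.44 and 2.07 FPKM against 0.72 to 1.35 FPKM (median 1.13), 2.11-fold (log2 change 0.66, SE 0.16, adjusted p = 0.0264). In all 3 the shBcat libraries lay above every shGFP library, 3 of 8 genes beside 16.6% of all genes. Gata2 was the reverse, 1.03 and 0.92 FPKM against 1.86 to 3.09 FPKM (median 2.09), 2.38 times lower (log2 change -0.74, SE 0.17, adjusted p = 0.0218), so the 2 GATA factors changed in opposite directions. Primitive endoderm markers had 0 of 7 called with shBcat, their list summing to 81.0 to 81.2 FPKM against 51.9 to 84.1 FPKM, and the 4 epiLC markers summed to 23.7 to 25.4 FPKM against 7.75 to 13.8 FPKM. Their part in the keratin rise was not tested.

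Both shBcat libraries were needed for these calls: limma called 0 of the 8 without shBcat replicate 1 (4 at an unadjusted p under 0.05) and 0 without replicate 2 (5), the counts over all genes dropping from 1255 to 190 and 196. It also called 0 (3 unadjusted) when libraries were averaged in pairs, where no gene at all was called, and the Gata3 call was lost without shGFP replicate 5 (adjusted p = 0.0508) and with a pseudocount of 0.1 (adjusted p = 0.0571).

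Elf3, the most abundant of the 10 genes in every shGFP library, depended on which shGFP libraries served as control. It was 23.5 and 26.1 FPKM with shBcat. Among shGFP libraries it was 74.7 to 84.3 FPKM in replicates 1, 2, 5 and 6 and 30.4 and 32.1 FPKM in replicates 3 and 4, the pair with the high mitochondrial share. The shBcat values lay below all 6, as they did for Gata2 and for 17.6% of all genes, and the log2 change of -1.21 (SE 0.41) was not called (adjusted p = 0.0994). With a term for the 4 libraries of high mitochondrial share it was -1.65 (adjusted p = 1.52e-05), and Krt8 (1.19) and Krt18 (0.89) kept their calls in that fit. Replicates 3 and 4 were also lower in Krt8 (0.53 times the mean of the other 4), Krt18 (0.60), Krt19 (0.51) and Tfap2c (0.66), and higher in Tfap2a (1.81 times). Tfap2c (30.4 and 31.1 FPKM with shBcat, 19.4 to 32.8 FPKM with shGFP), Tfap2a (0.92 and 1.22 against 1.14 to 2.37 FPKM) and Krt19 (0.96 and 0.70 against 0.33 to 0.95 FPKM) were not called, and their groups overlapped.

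**Figure D2:**
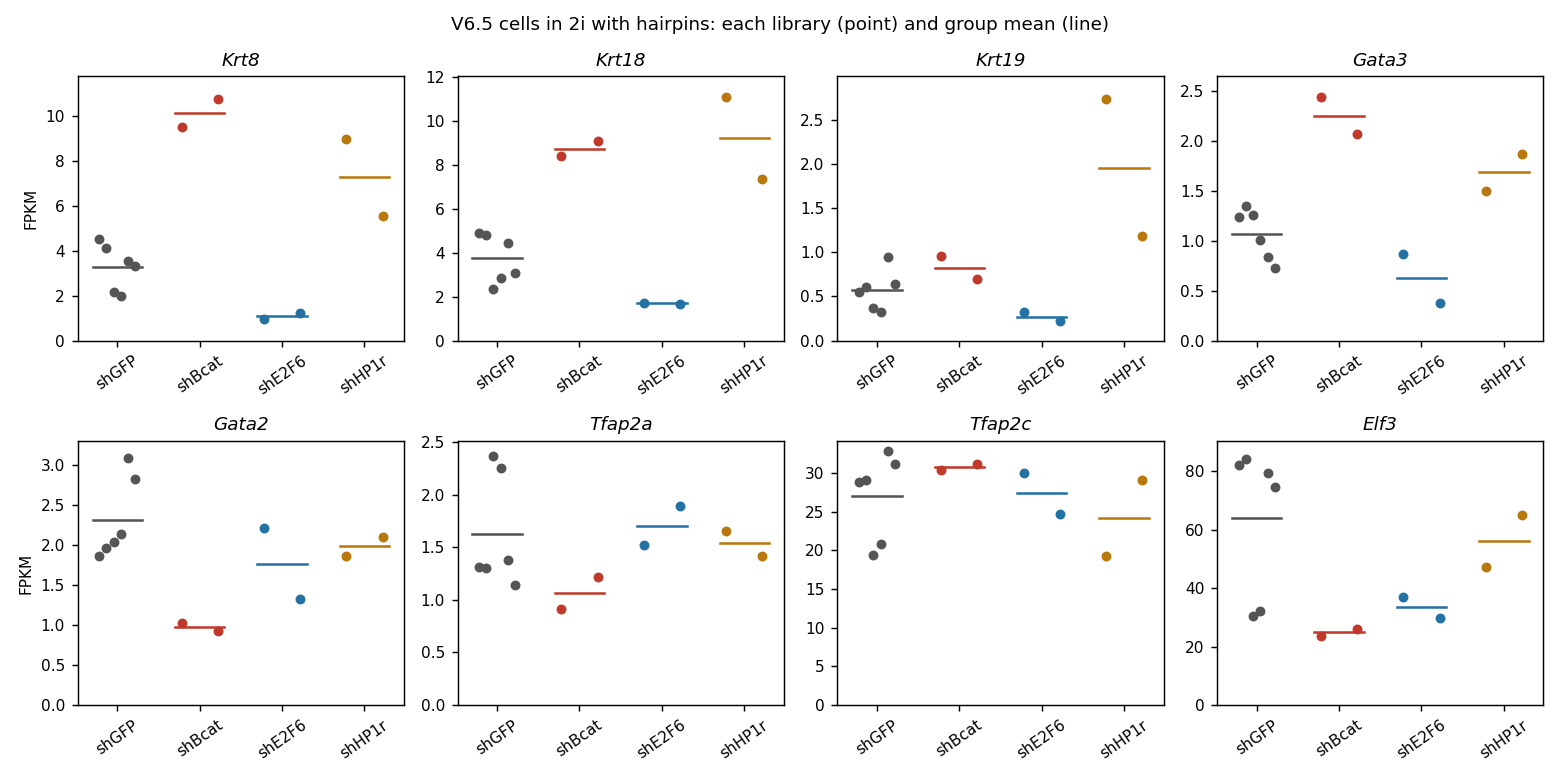
FPKM in each V6.5 library in 2i (points) with the group mean (line), for the 8 genes that passed the filter; shGFP points run from replicate 1 to 6 from left to right. Krt8 and Krt18 lie above every shGFP library with shBcat and shHP1r and below every one with shE2F6, and shGFP replicates 3 and 4 stand low in Elf3.

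Knockdown of HP1γ, a chromatin protein, also went with more keratin RNA. Of 8 genes tested 3 were higher and 0 lower, against 5.89% higher and 1.7% lower among all genes. Krt18 was 11.1 and 7.37 FPKM (2.46-fold against shGFP, log2 change 1.12, SE 0.23, adjusted p = 0.0146). Krt19 was 2.74 and 1.18 FPKM, above the 0.33 to 0.95 FPKM of shGFP (3.41-fold, log2 change 0.87, SE 0.20, adjusted p = 0.0236). It reached 1 FPKM in the shHP1r libraries only, so it was tested only through the group where it is high. Its call and its place among the 3 carry that selection. Krt8 was 9.00 and 5.56 FPKM (2.22-fold, log2 change 0.96, SE 0.25, adjusted p = 0.0425). All 6 of these values lay above every shGFP library, with replicate 1 the higher each time. Gata3 was 1.50 and 1.87 FPKM, also above every shGFP library, as were 14.2% of all genes (log2 change 0.38, SE 0.16, adjusted p = 0.174), and Gata2, Tfap2a, Tfap2c and Elf3 overlapped the controls.

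Limma called 0 of 7 tested without shHP1r replicate 1 (2 at an unadjusted p under 0.05), 0 of 8 when only shHP1r and shGFP were fitted (4 unadjusted), and 0 of 7 with libraries averaged in pairs (2 unadjusted). The Krt8 call was lost without any 1 of shGFP replicates 3, 4, 5 and 6 (adjusted p from 0.0541 to 0.0719). With the term for the 4 libraries of high mitochondrial share all 3 keratins kept their calls, at log2 changes of 0.73 (Krt8), 0.93 (Krt18) and 0.77 (Krt19), and Elf3 was called lower (log2 change -0.525, adjusted p = 0.0164, in place of -0.08).

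Markers of other cell types moved with the keratins in shHP1r cells. Of 7 primitive endoderm markers tested 3 were higher, Dab2, Lamb1 and Col4a1 (list median 0.82), the 10 listed markers summing to 81.5 to 103 FPKM against 51.9 to 84.1 FPKM in shGFP. Dab2 reached 1 FPKM in the shHP1r libraries only, so it was tested only through the group where it is high. The 5 defining markers listed summed to 4.18 to 6.24 FPKM against 1.24 to 3.66 FPKM. Their means with shHP1r and shGFP were 1.69 and 0.49 FPKM for Dab2, 2.08 and 1.20 FPKM for Gata4 (not called) and 0.98 and 0.35 FPKM for Pdgfra (not tested), and Gata6 and Sox7 were below 1 FPKM. Without shHP1r replicate 1 none of these 3 was called (0 of 6 tested). All 11 of the 2-cell stage genes tested were higher too, summing to 489 to 592 FPKM against 100 to 119 FPKM, with 8 called without shHP1r replicate 1. With shBcat 10 of the 11 were lower (5 without either shBcat library), summing to 9.59 to 9.98 FPKM. Thy1, the 1 fibroblast marker tested, was higher (3.78 against 1.05 FPKM) except without shHP1r replicate 1, and the 3 defining fibroblast markers listed summed to 3.32 to 5.20 FPKM against 0.68 to 1.63 FPKM. Col1a1 (mean 0.28 against 0.13 FPKM) and Col1a2 (0.19 against 0.02 FPKM, without overlap) were not tested. The part of these markers in the keratin rise was not tested.

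Compared with each other, the shHP1r and shBcat libraries differed in 0 of 8 genes (3 at an unadjusted p under 0.05: Gata2, Krt19 and Elf3), where 6.97% of all genes were higher and 2.34% lower. Both comparisons above share the 6 shGFP libraries. Krt18 overlapped between the knockdowns (log2 change 0.05, SE 0.28), Krt8 was lower in shHP1r (log2 change -0.46, SE 0.30, adjusted p = 0.446), and Elf3 was higher, at 47.1 and 65.0 FPKM (log2 change 1.13, SE 0.50, adjusted p = 0.217). With the term for the 4 libraries of high mitochondrial share, Gata2, Elf3 and Krt19 were called higher in shHP1r (adjusted p of 0.0433, 0.000294 and 0.045). Of these, Krt19 was tested only through the shHP1r libraries.

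With E2F6, a repressive E2F factor, knocked down, no gene of the set was called, though Krt8, Krt18 and Krt19 lay below every shGFP library. Of 8 genes tested 0 were called (3 at an unadjusted p under 0.05), against 0.41% higher and 0.652% lower among all genes. Krt8 was 0.96 and 1.25 FPKM (log2 change -0.99, SE 0.25, adjusted p = 0.0681), Krt18 was 1.72 and 1.67 FPKM (log2 change -0.78, SE 0.23, adjusted p = 0.0802), and Krt19 was 0.32 and 0.22 FPKM (adjusted p = 0.28). This position below every shGFP library was shared by 26.5% of all genes. On the log2 scale the 8 genes tested had a median of -0.328, beside -0.197 over the whole table. Krt8 and Krt18 were called lower without shGFP replicate 3 or 4, with adjusted p from 0.0243 to 0.038. Against these replicates alone, which share the high mitochondrial share, mean Krt8 was 0.53 times, Krt18 0.65 times and Elf3 1.07 times as high, and with the library term the Krt8 change was -0.55 (adjusted p = 0.142). Median-of-ratios scaling moved the median of all genes by 0.20 in this comparison and called 153 genes higher and 86 lower in place of 59 and 94.

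In QKO cells shBcat called none of the 8 genes tested (0 called, 1 at an unadjusted p under 0.05), against 0.585% higher and 1.56% lower among all genes. Gata2 came closest, at 1.52, 1.56 and 1.31 TPM with shBcat against 2.33, 2.70 and 2.43 TPM with shGFP, 1.70 times lower with no overlap (log2 change -0.50, SE 0.11, adjusted p = 0.0529). Krt8 was 2.49, 1.61 and 1.59 against 2.16, 2.34 and 2.14 TPM (log2 change -0.16, SE 0.14, adjusted p = 0.485). Krt18 was 1.02, 1.83 and 1.82 against 2.11, 2.27 and 1.87 TPM (log2 change -0.29, SE 0.16, adjusted p = 0.281), and Gata3 was 3.94, 2.30 and 2.35 against 3.76, 4.85 and 3.31 TPM (adjusted p = 0.237). Gata2 and Krt18 lay below every shGFP library and Elf3 above, beside 24.6% and 10.9% of all genes. None of the 3 genes that rose with shBcat in V6.5 cells was higher on average here, and the difference between the lines was not tested, since the tables were scaled separately.

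Within the QKO table the order of levels differed from that in unmodified V6.5. Elf3 (101 to 116 TPM) and Tfap2c (31.5 to 45.1 TPM) again led, but Gata3 (2.30 to 4.85 TPM) was above Krt8 and Krt18 in means, and the 4 keratins summed to 5.56 to 7.91 TPM. Median-of-ratios scaling called 173 genes higher and 176 lower in place of 91 and 243. Fibroblast markers moved with this contrast, 7 of 9 tested being lower with shBcat, and their list summed to 65.6 to 90.7 TPM with shBcat and 257 to 604 TPM with shGFP. No defining fibroblast marker was at 0 in either group. The count was 0 without shBcat replicate 2 or 3 or shGFP replicate 1, 2 without shBcat replicate 1 and 9 without shGFP replicate 3. Defining primitive endoderm markers summed to 14.3 to 20.4 TPM with shBcat and 27.6 to 48.7 TPM with shGFP, with 0 of 9 on the list called. Their part in the values of the 10 genes was not tested.

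**Figure D3:**
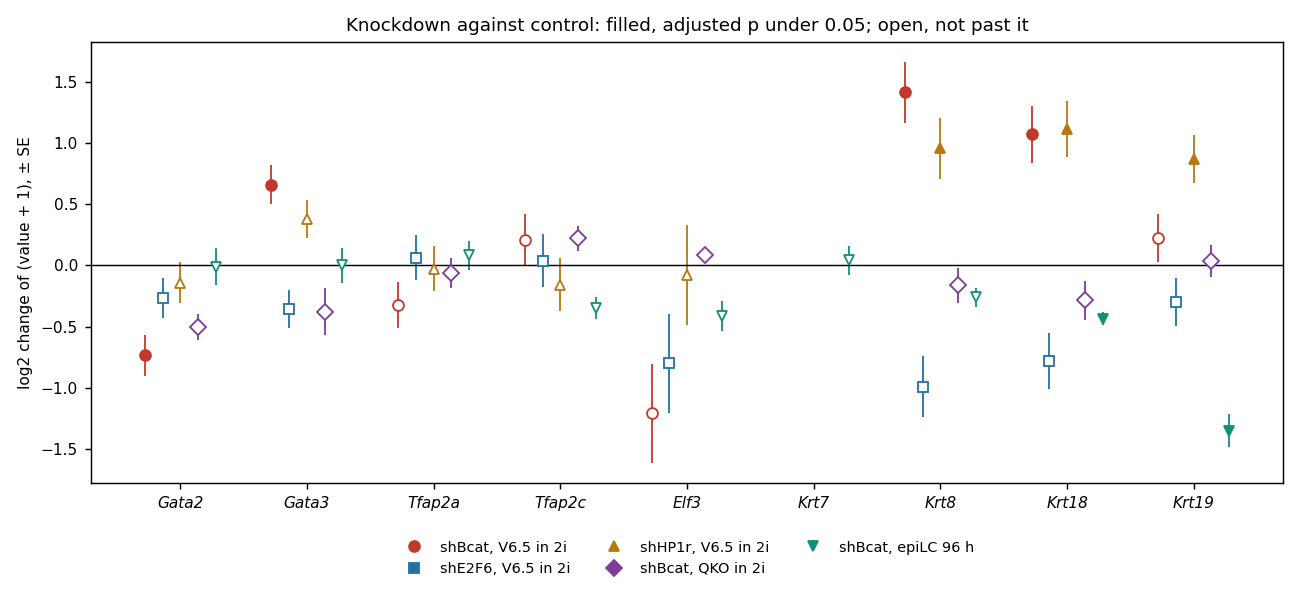
Log2 change of (value + 1) with its SE (bars) in 5 knockdown comparisons for the 9 genes tested at least once; filled symbols passed an adjusted p of 0.05 and open ones did not. Krt8 and Krt18 are above 0 with shBcat and shHP1r in V6.5 cells in 2i and below 0 in the other 3 comparisons, and Krt19 is lowest in shBcat epiLC at 96 h.

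Outside QKO cells, the proportion of Krt18 to Krt8 varied less than keratin levels did. The Krt18 to Krt8 ratio lay between 0.84 and 1.79 in the 12 hairpin libraries, where the sum of the 4 keratins ranged from 3.30 to 23.2 FPKM. It was 1.06 to 1.32 in the 2i and control epiLC table and 0.80 to 1.19 in the shBcat epiLC table. In QKO cells it was 0.41 to 1.15, where the 4 keratins summed to 5.56 to 7.91 TPM. Within the shBcat epiLC table it was 1.18 and 1.19 in control at 96 h and 0.80 to 1.11 in all 6 shBcat libraries, and in the hairpin table it was 0.84 and 0.88 with shBcat and 0.94 to 1.42 with shGFP. In both tables the shBcat libraries had less Krt18 per Krt8 than every control library, while in QKO cells the groups overlapped. The Krt19 to Krt8 ratio was 0.25 and 0.31 in control epiLC at 96 h and 0.10 to 0.14 in shBcat epiLC at all 3 times. In control epiLC of the other table it was 0.16 and 0.15 at 24 h, close to shBcat, and 0.23 and 0.24 at 48 h.

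**Figure D4:**
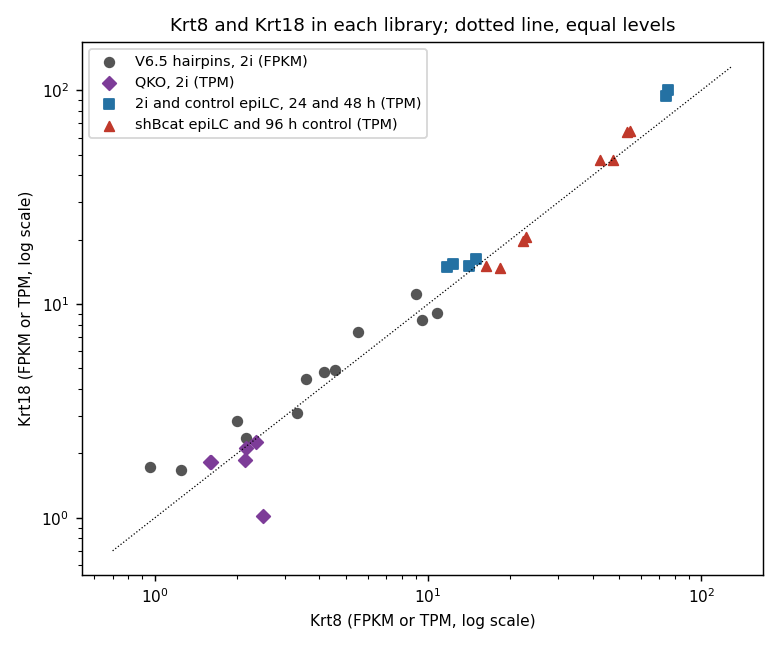
Krt18 against Krt8 in each of the 32 libraries, both axes on a log scale, in FPKM for the hairpin table and TPM for the other 3; the dotted line marks equal levels. Most libraries lie near the line, from 0.96 FPKM Krt8 in shE2F6 cells to 75.7 TPM Krt8 and 100.1 TPM Krt18 in epiLC at 48 h; QKO shBcat replicate 1 lies below it, with 2.49 TPM Krt8 and 1.02 TPM Krt18.

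Across the 12 hairpin libraries, which share controls and lie in pairs, Pearson's r between log2 levels is given as a description. It was 0.97 between Krt8 and Krt18, 0.82 between Gata3 and Krt8, and -0.82 between Tfap2a and Tfap2c. Among 14407 genes, the profiles most like Krt8 were Inf2 (0.98), Vax2os (0.98), Flna (0.98), Plin3 (0.97) and Agpat4 (0.97), and the profiles most like Krt18 were Col4a1 (0.98), Gramd3 (0.98), Ap3m2, Krt8 and Crabp1 (0.97 each). Gata3 was most like Htra1 (0.97) and Cyr61 (0.95), Tfap2c most like Vegfa (0.98) and Kntc1 (0.96), and Krt19 most like Stom (0.97). Krt8 was the only member of the set among the 5 nearest profiles of these 5 genes.

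Related genes were also examined in V6.5 cells in 2i. Of 12 trophoblast identity genes tested with shBcat, 3 were higher and 2 lower, among them Fgfr2 (9.23 against 2.29 FPKM), the homeobox genes Rhox9 (6.38 against 2.31 FPKM) and Rhox6 (12.8 against 5.18 FPKM), and, lower, Msx2 (0.40 against 1.80 FPKM) and Eomes (0.80 against 4.30 FPKM). Without shBcat replicate 1 the counts were 1 and 1, and without replicate 2 they were 1 and 0. Of 16 simple epithelium genes 1 was higher, Dsp (desmoplakin, 9.33 against 6.09 FPKM), and of 3 keratins outside the set Krt17 was higher (1.28 against 0.48 FPKM), both lost without either shBcat library. Krt17 was also lost without any 1 of shGFP replicates 4, 5 and 6.

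Genes that overlap a member could add reads if strand was not used in counting. Those overlapping Gata2, Gata3 and Tfap2a reached at most 0.63 TPM, and the pseudogene Krt8-ps, whose reads may not be separable from Krt8, at most 1.27 TPM.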

How the data were processed

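RNA was measured by RNA-seq in 32 of the 50 samples, and the other 18, made from genomic DNA, were not analysed here. The authors deposited FPKM values for the 12 V6.5 hairpin libraries (TopHat2 2.0.13 and Cufflinks 2.2.1, per the submitters' processing notes) and TPM values for the other 20 (STAR and RSEM, versions not given in the sources used here, per the same notes), both on mm10. No gene of the FPKM table is at 0 in any library, and 1 further column of per-sample values in it was not used: it too is named for shHP1r replicate 2, but holds values below 0 and is not FPKM. From these values log2(value + 1) was computed, genes with at least 1 in at least 2 libraries were kept, and all groups of a table were fitted together in limma 3.58.1 (R 4.3.3, statmod 1.5.0) with a variance trend and robust moderation. Tests were two-sided, adjusted by Benjamini-Hochberg, and the fit was tested on simulated data. The pseudocount shrinks changes of low genes. Tables were never compared by a test. The 10 genes, the gene lists and the alternatives were chosen with earlier results of these data known. Named genes were the 10, the hairpin targets, defining markers, up to 4 genes of smallest p per list and comparison, and up to 5 genes most like a member; 1 gene that this rule names is not reported here. Samples were grouped by title. Depth is unknown, so no counting interval is given. Sequences are from RefSeq (GRCm38.p6).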

Additional observations from a re-analysis of the deposited data

Results flagged for a closer look

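Several effects of like contrasts ran in opposite directions in every library of 2 settings. None of these differences was tested, because the settings lie in tables that were scaled separately, and each value below is a difference between 2 log2 changes. The control in 2i was shGFP, while control epiLC carried no named hairpin. Pairs of 2i with epiLC at 96 h therefore also differ in their control. From 24 to 48 h, Gata3 had a log2 change of 1.62 in control epiLC and -0.89 in shBcat epiLC, a difference of 2.51. Gata2 had 0.22 and -0.24 over the same interval, a difference of 0.46, with the shBcat value not called. For shBcat against shGFP in 2i, Krt18 had 1.07 in V6.5 cells and -0.29 in QKO cells, a difference of 1.36. Elf3 had -1.21 in V6.5 cells and 0.09 in QKO cells, a difference of -1.30, neither called. For shBcat against its control in V6.5 cells in 2i and in epiLC at 96 h, Krt8 had 1.42 and -0.26, a difference of 1.68, and Krt18 had 1.07 and -0.44, a difference of 1.51. Elf3 had 0.09 in QKO cells and -0.41 in epiLC at 96 h, a difference of 0.50, neither called. In the 6 shGFP libraries, the 1 group large enough to examine, no single library lay far from its nearest neighbour in any of the 10 genes, where chance would mark about 1 gene in 20. That comparison cannot mark a pair, and replicates 3 and 4 together stood apart, with Elf3 at 30.4 and 32.1 FPKM against 74.7 to 84.3 FPKM.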

How the results depend on the processing

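Of 94 log2 changes of the 10 genes, none that was called changed sign under any alternative (1018 of 1148 values kept direction and side of the threshold, 63 lost a call, 27 gained one). The 40 values that changed sign belong to results that were not called. Under median-of-ratios scaling these were -0.022 for Krt18 (shHP1r against shBcat), 0.015 for Krt18 (24 h against 2i), 0.007 for Gata3 (96 h), and -0.012 and -0.065 for Gata2 and Elf3 (shBcat epiLC, 96 against 48 h). With the library set term they were -0.30 for Tfap2a and 0.086 for Elf3 with shE2F6, and 0.15 for Tfap2a with shHP1r. With 1 library left out, the log2 changes ran from -0.036 to 0.16 (Tfap2a) and -0.098 to 0.17 (Tfap2c) with shE2F6. With shHP1r they ran from -0.094 to 0.051 (Tfap2a), -0.45 to 0.13 (Tfap2c) and -0.31 to 0.15 (Elf3), and for Krt18 against shBcat from -0.22 to 0.31. In QKO cells they ran from -0.13 to 0.016 (Tfap2a) and -0.037 to 0.10 (Krt19). In epiLC they ran from -0.098 to 0.007 (Krt18, 24 h against 2i), -0.032 to 0.008 (Elf3, 48 against 24 h), -0.22 to 0.20 (Gata2, 96 h), -0.17 to 0.16 (Gata3, 96 h) and -0.085 to 0.17 (Krt7, 96 h). In shBcat epiLC they ran from -0.30 to 0.021 (Elf3, 48 against 24 h), -0.047 to 0.14 (Gata2, 96 against 48 h) and -0.13 to 0.19 (Elf3, 96 against 48 h).

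Counts of the 10 genes called moved as follows, and the cause was not tested except where fewer genes or libraries enter. With a minimum of 5, which leaves fewer of the genes, 2 were called for shBcat in V6.5 cells (4 as reported), 1 for shHP1r (3), 4 for 24 h against 2i (7), 4 for 48 against 24 h (8) and 5 for 48 h against 2i (9). With libraries averaged in pairs, 0 were called for shBcat in V6.5 cells and 0 for shHP1r. With only the compared groups fitted, 0 were called for shHP1r and 2 for shHP1r against shBcat, and the library set term gave 3 for the latter. A pseudocount of 0.1 gave 1 for shE2F6. Left-out libraries gave 0 to 5 for shBcat in V6.5 cells, 0 to 2 for shE2F6 and 0 to 3 for shHP1r.

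Counts over all genes ranged across alternatives from 0 to 3473 for shBcat in V6.5 cells (1255 as reported), 0 to 7685 for shE2F6 (153), 0 to 3296 for shHP1r (1093), 117 to 3817 for shHP1r against shBcat (1341), 8 to 964 in QKO cells (334) and 268 to 771 for epiLC at 96 h (738). For shBcat epiLC they ranged from 2870 to 6279 for 48 against 24 h (5115) and 2611 to 5503 for 96 against 48 h (5360).

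Deviations of same-numbered libraries of 2 groups had r from -0.14 to 0.28, which cannot settle whether replicate numbers pair the libraries. The highest r was between control and shBcat epiLC at 96 h, where a replicate block kept the Krt18 and Krt19 calls. Results with this block are given here only. With the replicate block Krt8, Krt18 and Elf3 (log2 change -1.71) were called for shBcat in V6.5 cells, and Gata2 (adjusted p = 0.0791) and Gata3 (adjusted p = 0.117) were not. In control epiLC, Krt7 was called at 24 h against 2i (adjusted p = 0.0476) and Gata2 in neither 48 h comparison (adjusted p of 0.0531 and 0.0553). The block gave 4 genes called for shE2F6, 0 for shHP1r and 2 for shHP1r against shBcat, and sign changed for Tfap2c with shE2F6 (-0.086) and for Gata2 (0.036) and Tfap2a (0.14) with shHP1r. Depth is unknown, and values near 1, as for Gata2, Gata3, Tfap2a and Krt7, are the least precise.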
